A study of Mus musculus with 9 samples.

Results

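The genes described here are 8 complement genes listed by name, C3, C4b, C1ra, Cfb, Cd55, Cd59a, Serping1 and Cr2, out of 22262 genes with a count in any of 9 colon libraries. They were found by symbol through their Ensembl identifiers, and 8 of 8 had at least 1 count. Messenger RNA was sequenced from the 3′ end, with molecular identifiers, in the upper colon of wild-type female C57BL/6N mice at 12 months of age, with 1 library per mouse. The WT_SE group (standard environment, mice 1, 2, 3 and 5, n = 4) was housed 3 to 4 to a cage, and the WT_EE group (labelled enhanced environment, the study's enriched housing, mice 1 to 5, n = 5) was housed 8 to a cage with wheels, tunnels and objects. Housing began at weaning, and cage and environment cannot be told apart. The comparison asks which colon genes differ with an enriched environment in mice without a transgene. Library totals ran from 295535 to 454043 molecule counts, so that 3 counts, the most that a count of 0 allows by counting error alone, stand for 6.61 to 10.2 CPM (counts scaled to the library total).

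Complement is a chain of plasma and membrane proteins that marks microbes, immune complexes and cell debris for uptake and can open pores in membranes. It starts through antibody-bound C1, through lectins or through the alternative pathway, and all routes meet at the cleavage of C3, while membrane-bound and soluble regulators hold it in check on the body's own cells. Liver makes most of the plasma proteins, but the gut wall makes some of its own, and its lymphoid follicles hold B cells and follicular dendritic cells that capture C3-tagged antigen through receptors of the Cr2 gene.

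Levels are CPM after TMM scaling, which evens out differences in composition between libraries. Each count is a molecule caught at its 3′ end, so on this scale levels do not grow with gene length. Over the 9 libraries the regulator Cd59a had the highest mean level of the members, 172 ± 60.5 CPM (SD, n = 9), followed by the regulators Serping1 with 83.7 ± 20.04 and Cd55 with 58.2 ± 30.1. The components followed, C3 with 54.5 ± 22.5 CPM, C1ra with 41.4 ± 15.8 and C4b with 24.0 ± 9.45. Cr2 had a mean level of 8.29 ± 13.4 and Cfb of 0.613 CPM. The order partly turned on the group, since Cd55 lay above C3 in WT_EE (71.7 and 52.1 CPM) and below it in WT_SE (41.4 and 57.4). Neighbours in the order from Serping1 to C1ra differed by less than the larger of their SDs, while C1ra and C4b differed by more than either SD. Of the other complement genes only Cr1l, at 162 CPM, and Cpn1, at 85.9, had higher mean levels than Serping1.

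**Figure D1:**
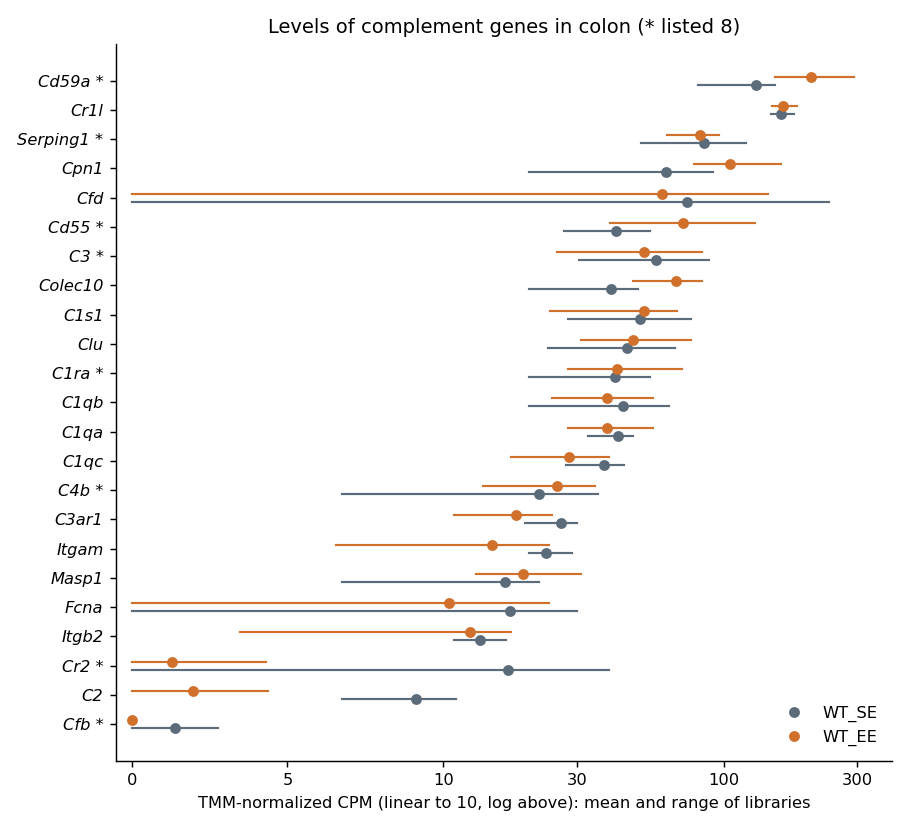
Level of the members (asterisks) and of other reported complement genes in each group (TMM-normalized CPM, axis linear to 10 and logarithmic above), as the group mean (point) and the range over libraries (line). Cd59a leads in WT_EE, with a mean of 205 CPM, and Cfb lies at the foot, with 0 in WT_EE.

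The members differed in how much they varied from mouse to mouse. Serping1 was the steadiest, with a coefficient of variation of 23.9% over the 9 libraries, against 35.2% for Cd59a, 51.8% for Cd55 and 161% for Cr2. Within groups, the spread of Cd59a counts was 3.89 times that of counting alone (chi-square per degree of freedom), that of C3 3.70 times and that of Cd55 3.59 times. The median of 9850 tested genes with a mean of 5 to 80 counts was 1.25, with quartiles of 0.806 and 1.88, so these 3 members lay above most genes in this range. Where mice differ, this measure grows with the mean count. Cd59a, with a mean of 63.4 counts, lies towards the top of the range, so its excess over genes of like depth cannot be read from this median. C1ra lay at 2.73, Serping1 at 1.76 and C4b at 1.41. Cr1l, a membrane regulator of C3 and C4 fragments, varied by only 7.41% at a level close to that of Cd59a.

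Several libraries stood apart. WT_SE mouse 3 was the lowest of the 9 libraries for 5 of the 8 members (Cd59a, Cd55, Serping1, C1ra and C4b), and its summed member level was 216 CPM against 393 to 594 in the other libraries. The library names of WT_SE mice 1 and 3 ended in L3 and those of the other 7 in L2, so this ending cannot be fully separated from the groups. Smooth muscle markers (6 of 6 with counts, Acta2 the most abundant) summed to 2841 CPM in WT_EE mouse 2 and 2839 in WT_EE mouse 4, against 1508 to 1974 in the other libraries. These 2 mice also had the highest sums of fibroblast (1555 and 1382 CPM), epithelial (2841 and 2966), endothelial (195 and 213) and acute-phase genes (418 and 402), and the lowest Slc10a2 (10.5 and 12.4). By library total, these 2 (295535 and 336967 counts) and WT_SE mouse 3 (299062) were the smallest. Summed counts of genes averaging 80 to 160 grew with library total at a log-log slope of 0.551, against 1.31 for 5 to 10. Small libraries thus lean to high CPM of abundant genes and low CPM of rarer ones. In counts, muscle markers summed to 815 and 918 (492 to 832 elsewhere) and epithelial markers to 815 and 959 (740 to 1084). The part of depth was not tested. Slc10a2, a bile acid transporter, ran from 10.5 to 372 CPM and was above 200 in WT_SE mice 2 and 3 and WT_EE mice 1 and 3. The 8 epithelial markers all had counts, from 2061 to 2966 CPM in sum.

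Of the 8 members, 7 reached 4 CPM in at least 1 library and were tested with edgeR, and Cfb did not. Cd59a and Cd55 were higher in WT_EE at an unadjusted p under 0.05 and Cr2 was lower, while C3, C4b, C1ra and Serping1 did not pass. These are 3 of 7 tested members, beside 7.65% of all 17441 tested genes (1334 genes). In single directions, 2 members were higher beside 4.31% of all tested genes, and 1 was lower beside 3.34%. Cr2 reached the limit in 3 WT_SE libraries and 1 WT_EE library, and the members were chosen with earlier results known, so nothing is read from these shares. After adjustment over all genes tested, 0 members passed with edgeR, beside 0.0401% of all tested genes (7 genes), with 3 at an unadjusted p under 0.05. DESeq2 also gave 0 at an adjusted p under 0.05, with 3 at the unadjusted limit, and limma-voom 0, with 2. The edgeR likelihood ratio test placed Cr2 under the adjusted limit, at 0.0325 (0.00241 to 0.867 over the alternatives tried). For 0 of the 7 tested members did the 2 groups' values fail to overlap, beside 2.58% of all tested genes. The median log2 fold change (WT_EE over WT_SE) of the 7 was 0.05, against 0.01 for all tested genes. In bulk tissue, fewer cells of a type and less RNA per cell cannot be told apart.

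**Figure D2:**
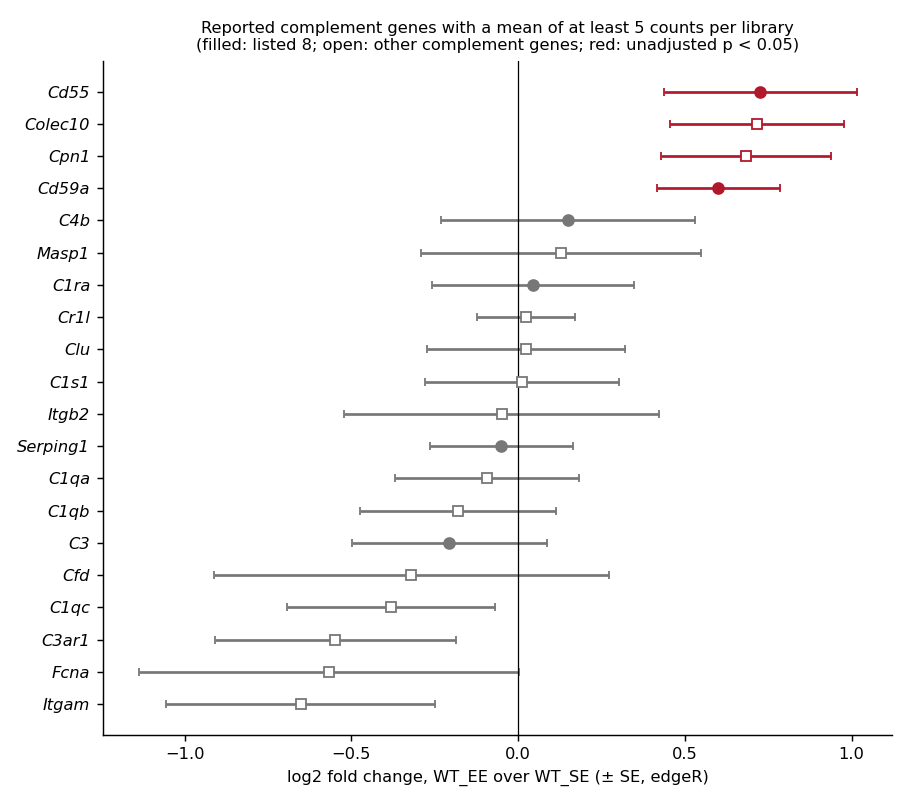
Log2 fold change (WT_EE over WT_SE, edgeR) of members (filled) and other reported complement genes (open) with a mean of at least 5 counts per library, with bars of 1 standard error and red for genes at an unadjusted p under 0.05. Of the members drawn, Cd55 (0.73) and Cd59a (0.60) pass, and Cr2 has too few counts to be drawn.

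C1ra encodes the C1r protease, which C1q sets off once it has bound antibody. C1ra measured 41.8, 47.3, 20.3 and 54.7 CPM in WT_SE mice 1, 2, 3 and 5 and 71.2, 31.4, 48.1, 27.8 and 30.1 in WT_EE mice 1 to 5. The groups overlapped widely, with means of 41.0 ± 14.8 (SD, n = 4) and 41.7 ± 18.4 (SD, n = 5). In edgeR its log2 fold change was 0.05 ± 0.30 (SE), which turned to just under 0 with upper quartile scaling, with an adjusted p = 0.985 in edgeR and p = 0.96 in the exact permutation test of the means. It was −0.14 without WT_SE mouse 3 and −0.24 without WT_EE mouse 1. Split by Slc10a2, C1ra lay in opposite orders. In libraries with Slc10a2 above 200 CPM it was 47.3 and 20.3 in WT_SE and 71.2 and 48.1 in WT_EE, and in the other libraries 41.8 and 54.7 in WT_SE and 27.8 to 31.4 in WT_EE. Whether this difference exceeds chance was not tested. Among 16 marker lists, C1ra followed the macrophage list most closely (Pearson's r = 0.804, Spearman's rho = 0.833 over 9 libraries, and r = 0.916 without the 2 farthest), 1 of 112 such relations computed and given as a description.

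C4b encodes C4, which C1s cleaves to build the C3 convertase of the classical and lectin pathways. C4b measured 26.1, 19.5, 6.76 and 35.5 CPM in the WT_SE mice and 30.2, 34.9, 24.0, 24.7 and 13.9 in the WT_EE mice, from 2 to 14 counts a library. The WT_EE values all lay within the WT_SE range, and the means were 22.0 ± 12.1 (SD, n = 4) and 25.5 ± 7.87 (SD, n = 5). The log2 fold change was 0.15 ± 0.38 (SE), with an adjusted p = 0.962 in edgeR and p = 0.619 in the exact permutation test of the means. Without WT_SE mouse 3, the lowest library, it was −0.098.

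C3 encodes the protein on which all the pathways meet, and whose fragments tag targets for uptake. C3 measured 88.7, 64.0, 30.4 and 46.5 CPM in the WT_SE mice and 34.5, 55.8, 61.2, 83.5 and 25.5 in the WT_EE mice. Each group held both high and low mice, and the means were 57.4 ± 24.99 (SD, n = 4) and 52.1 ± 22.9 (SD, n = 5). The log2 fold change was −0.21 ± 0.29 (SE), with an adjusted p = 0.915 in edgeR and p = 0.746 in the exact permutation test of the means. Without WT_SE mouse 1, the highest library, it was 0.094.

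Cfb encodes factor B, the protease of the alternative pathway that amplifies C3 cleavage. It had 2 counts in all, 1 each in WT_SE mice 2 and 5, and 0 in the 5 WT_EE libraries. Both groups lay at or under the 3 counts that a count of 0 allows, so no difference was detectable at this count.

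Serping1 encodes C1 inhibitor, the soluble serpin that takes C1r and C1s out of the C1 complex. Serping1 measured 91.4, 78.0, 50.7 and 120 CPM in the WT_SE mice and 92.8, 62.7, 83.1, 95.9 and 78.7 in the WT_EE mice. The WT_EE values all lay within the WT_SE range, with means of 85.1 ± 28.9 (SD, n = 4) and 82.6 ± 13.1 (SD, n = 5). The log2 fold change was −0.05 ± 0.21 (SE), with an adjusted p = 0.969 in edgeR and p = 0.905 in the exact permutation test of the means. It was 0.16 without WT_SE mouse 5 and 0.021 without WT_EE mouse 2.

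Cd55 encodes decay-accelerating factor, a lipid-anchored membrane protein that breaks up C3 convertases on the cell that bears it. Cd55 measured 39.2, 44.6, 27.1 and 54.7 CPM in the WT_SE mice and 60.5, 73.2, 39.3, 130 and 55.5 in the WT_EE mice. WT_EE mouse 4 stood highest, 4 of the 5 WT_EE values lay above every WT_SE value, and WT_EE mouse 3 lay within the WT_SE range. The means were 41.4 ± 11.5 (SD, n = 4) and 71.7 ± 34.7 (SD, n = 5). Cd55 rose by a log2 fold change of 0.73 ± 0.29 (SE), with an unadjusted p = 0.0164 and an adjusted p = 0.485 in edgeR, and p = 0.103 in the exact permutation test of the means. This test is two-sided and runs over all ways to part the 9 mice into groups of 4 and 5, with 0.00794 as its smallest possible p. The Cd55 call rested on single libraries. It did not pass without WT_EE mouse 4 (log2 fold change 0.43), nor without WT_SE mouse 3 (0.60). Nor did it pass within the 7 libraries ending in L2 (0.49), or without the 2 WT_EE libraries richest in smooth muscle markers (0.30), and limma-voom (0.60) and a block on replicate number (0.46) ended the call as well. In libraries with Slc10a2 above 200 CPM, Cd55 was 44.6 and 27.1 in WT_SE and 60.5 and 39.3 in WT_EE (log2 fold change 0.45, not passing), and in the other libraries 39.2 and 54.7 in WT_SE and 73.2, 130 and 55.5 in WT_EE (0.85, passing).

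Cd59a encodes CD59, a lipid-anchored membrane protein that keeps the terminal complex from forming a pore. Cd59a measured 146, 142, 81.2 and 153 CPM in the WT_SE mice and 158, 293, 153, 232 and 190 in the WT_EE mice. WT_EE mice 2, 4 and 5 stood clear of the WT_SE mice and WT_SE mouse 3 stood below all others, and the groups met at 153 CPM, in WT_SE mouse 5 and WT_EE mouse 3. The means were 131 ± 33.3 (SD, n = 4) and 205 ± 58.4 (SD, n = 5). Cd59a rose by a log2 fold change of 0.60 ± 0.18 (SE), with an unadjusted p = 0.00246 and an adjusted p = 0.269 in edgeR, and p = 0.0556 in the exact permutation test of the means. That exact p was 0.0317 on library totals alone, 0.0397 on the log2 scale and 0.0794 with upper quartile scaling, and 4 of 5 WT_EE mice lay above every WT_SE mouse. Cd59a passed without each library in turn, with log2 fold changes of 0.45 to 0.70. Without WT_EE mice 2 and 4, the libraries richest in smooth muscle markers, it did not pass (0.33), nor when the library-name ending was added to the model (0.44), while within the 7 libraries ending in L2 it passed (0.45). Among libraries with Slc10a2 at or under 200 CPM, Cd59a was 146 and 153 in WT_SE and 293, 232 and 190 in WT_EE, a log2 fold change of 0.65 that passed. Among those above, it was 142 and 81.2 in WT_SE and 158 and 153 in WT_EE, a log2 fold change of 0.45 that did not pass. With the Slc10a2 set as a term over all 9 libraries Cd59a passed (0.57), as did Cd55 (0.69), and there (0.0368) and with no filter (0.0335) Cd59a was under the adjusted limit in edgeR, in a range of 0.0335 to 0.996 over the alternatives.

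**Figure D3:**
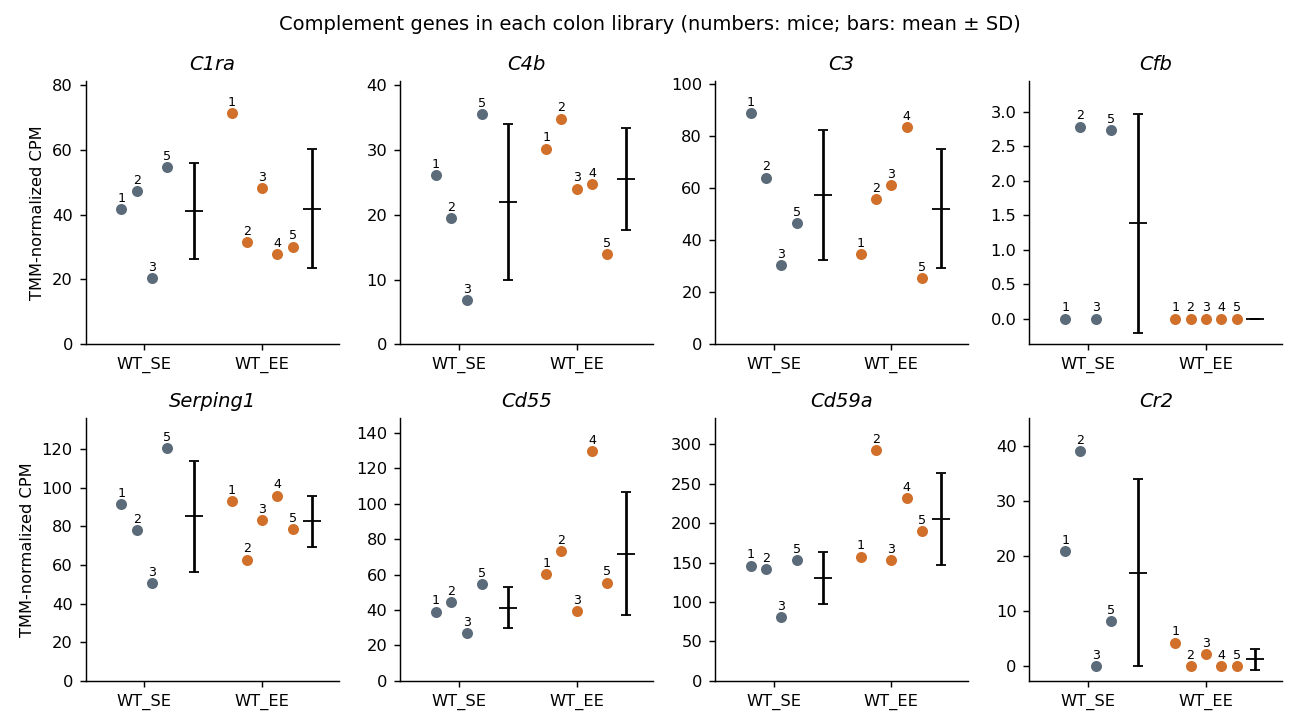
Level of each of the 8 members in each library (TMM-normalized CPM), with group means and SD bars, and mouse numbers beside the points. For Cd59a, 3 WT_EE mice lie from 190 to 293 CPM, while WT_SE mouse 3 lies at 81.2.

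Cr2 encodes the complement receptors that bind C3 fragments on B cells and follicular dendritic cells. In the mouse, splicing of this gene yields both CR2 (CD21) and CR1 (CD35), which counts from a shared 3′ end cannot separate. Cr2 had 8, 14, 0 and 3 counts in WT_SE mice 1, 2, 3 and 5 and 2, 0, 1, 0 and 0 in WT_EE mice 1 to 5. WT_SE mice 1 and 2 held most of the molecules, and WT_SE mouse 3 had none, like 3 of the WT_EE mice, so the groups overlapped. Only 2 WT_SE and 0 WT_EE libraries held more than the 3 counts that a count of 0 allows. In levels, these counts came to 17.02 ± 16.98 CPM (SD, n = 4) in WT_SE and 1.30 ± 1.93 (SD, n = 5) in WT_EE. Pooled over mice, 25 of 1408164 counts against 3 of 1957501 made Cr2 11.6 times as abundant in WT_SE, with an exact 95% interval of 3.53 to 59.9 that covers counting error only. This ratio was 6.83 without WT_SE mouse 2 and 26.7, on a single WT_EE count, without WT_EE mouse 1. Cr2 was lower in WT_EE with an unadjusted p = 0.000283 and an adjusted p = 0.13 in edgeR, and with p = 0.0476 in the exact permutation test of the means, which did not pass on the log2 scale (p = 0.0952).

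Some B-cell and follicle markers moved with Cr2. The B-cell list (10 of 12 genes with counts, Spib the most abundant, Cd79a and Blk at 0) summed to 31, 24, 7 and 6 counts in the WT_SE mice and 9, 6, 15, 1 and 6 in the WT_EE mice. Of its 9 tested genes, 2 were lower in WT_EE and 0 higher with edgeR at an unadjusted p under 0.05, beside 3.34% of all tested genes lower, and 9 of 9 had a negative log2 fold change, with a median of −1.52 against 0.01 for all tested genes. Among the 2 was Ms4a1 (CD20), with counts of 9, 6, 1 and 0 in WT_SE and 2, 0, 1, 0 and 2 in WT_EE. The other, Cd79b (log2 fold change −3.24), had only 4 counts in all. Cxcl13, the chemokine that draws B cells into follicles, had 16, 26, 5 and 5 counts in WT_SE and 14, 3, 3, 0 and 6 in WT_EE, a log2 fold change of −1.47 that passed at the unadjusted limit. Spib (log2 fold change −0.11) and the other follicle gene, Madcam1 (−0.19), did not pass. WT_SE mice 1 and 2 thus led in Cr2, in the B-cell list and in Cxcl13. Without these 2 mice the Cr2 call was lost (log2 fold change −1.38). Over the 9 libraries the macrophage list also ran with Cr2 (r = 0.765, rho = 0.888, and r = 0.693 without the 2 farthest). For the B-cell list these values were 0.755, 0.592 and 0.73, and for the follicle list (Cxcl13 and Madcam1) 0.855, 0.809 and 0.748. These values include the difference between groups. With group means taken out, r was 0.733 for the macrophage list, 0.617 for the B-cell list and 0.779 for the follicle list. Of 7 tested macrophage genes, 0 passed and 7 had a negative log2 fold change, with a median of −0.24. The part of follicle or macrophage content in the Cr2 difference was not tested.

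**Figure D4:**
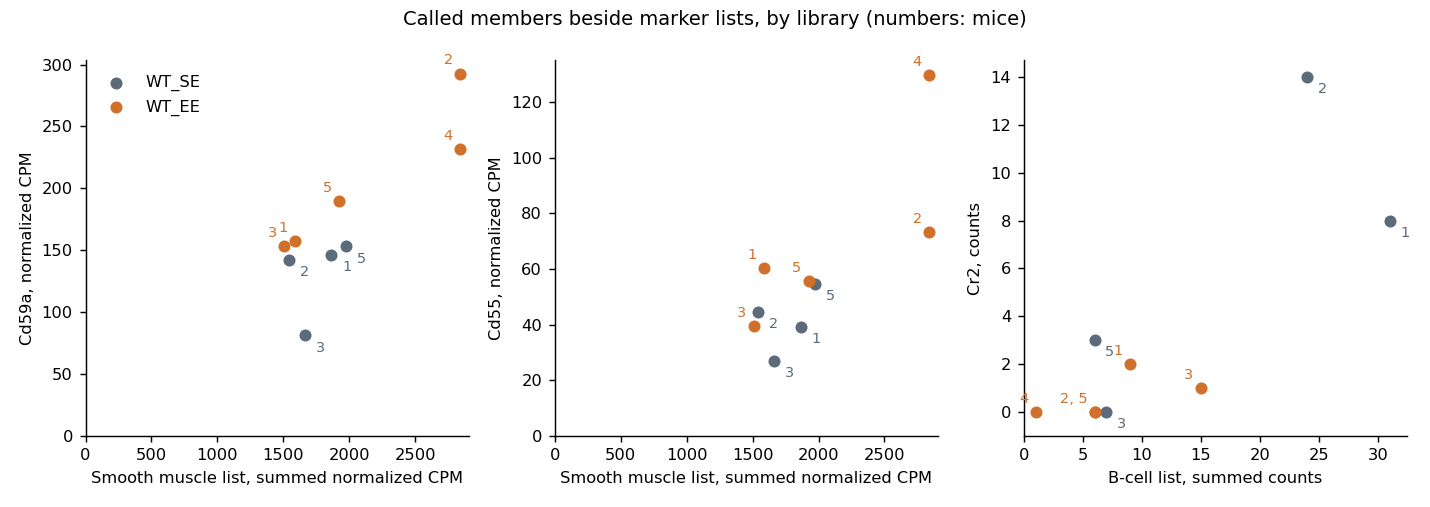
Cd59a and Cd55 levels (TMM-normalized CPM) against the summed smooth muscle list, and Cr2 counts against the summed B-cell list counts, by library, with mouse numbers. WT_EE mice 2 and 4, at 2841 and 2839 on the muscle axis, hold the highest Cd59a and Cd55 levels, and WT_SE mice 1 and 2 the most Cr2 counts.

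Cd55 and Cd59a, the membrane regulators that were higher in WT_EE at the unadjusted limit, ran together over the 9 libraries. Pearson's r of their log2 levels was 0.82 over 9 libraries (Spearman's rho = 0.917, and r = 0.779 without the 2 farthest), the highest of the 15 pairs among the 6 members with enough counts. This r includes the group difference by which both genes were called, so it is no separate evidence, and a value within groups is not given. For the 15 pairs the median r was 0.409, and 15 of 15 were positive, but 6 of the 15 turned negative without the 2 farthest libraries. The endothelial list followed both genes over the 9 libraries, Cd59a with r = 0.871 (rho = 0.733, and r = 0.696 without the 2 farthest) and Cd55 with r = 0.824 (rho = 0.6, and r = 0.492). With group means taken out, r with this list was 0.807 for Cd59a and 0.739 for Cd55. The libraries fall into a high and a low set by Slc10a2, with the values of both genes given above, and both were highest in WT_EE mice 2 and 4, where Slc10a2 was lowest. By CPM, smooth muscle markers were highest in the WT_EE mice with the most Cd59a and Cd55, which lie apart on this list, so no correlation is given for it. Of the 6 muscle genes, 2 were higher in WT_EE and 0 lower at an unadjusted p under 0.05, beside 4.31% of all tested genes higher, Acta2 with a log2 fold change of 0.36 and Des with 0.38. Of 5 endothelial genes, 1 was higher (Kdr, the most abundant), beside the same 4.31%. The 5 went both ways, 3 with a positive and 2 with a negative log2 fold change, and their median was 0.04. The endothelial list summed to 170, 123, 108 and 167 CPM in WT_SE and 153, 195, 155, 213 and 160 in WT_EE. The part of muscle and vessel content in the Cd55 and Cd59a differences was not tested beyond 2 measurements, the values without WT_EE mice 2 and 4 given above and a model with the muscle list's level added, in which Cd59a passed (0.37) and Cd55 did not (0.39).

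Among 8488 other genes with enough counts, those most like Cd59a across the 9 libraries were Rgs1 (r = 0.975), a regulator of G-protein signalling, then Enah (r = 0.971), an actin regulator, and Map4 (r = 0.969), a microtubule-binding protein. For Rgs1 the log2 fold change was 0.99 (adjusted p = 0.187 with edgeR). Cd55 was closest to Coro1c (r = 0.948) and Actn1 (r = 0.946), both actin-binding, and to Eif6 (r = 0.945), a ribosome factor. C1ra was closest to the clock gene Cry2 (r = 0.945), Wdfy3 (r = 0.912) and Tapbpl (r = 0.888). Serping1 was closest to Dgat1 (r = 0.948), Slc25a12 (r = 0.926) and Ammecr1l (r = 0.921), and C3 to Sec23a (r = 0.827), Myh14 (r = 0.827) and Foxj3 (r = 0.818). Without the 2 farthest libraries these values ranged down to 0.672, for Ammecr1l. They are the highest of many correlations over 9 points and serve only as a description.

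The promoters of the 3 called members differed in base content. RefSeq (GRCm38.p6) gave a promoter for 5 of the 8 members, among them Cd55, Cd59a and Cr2. These are shown here as the members that passed the unadjusted limit in edgeR, none of which passed after adjustment. Serping1, C4b and Cfb are named only. The 250 bases before each start are printed 5′ to 3′ on the gene's strand, chr1:130462745-130462994 (minus) for Cd55, chr2:104095551-104095800 (plus) for Cd59a and chr1:195176720-195176969 (minus) for Cr2. Capitals mark motif matches.
Cd55: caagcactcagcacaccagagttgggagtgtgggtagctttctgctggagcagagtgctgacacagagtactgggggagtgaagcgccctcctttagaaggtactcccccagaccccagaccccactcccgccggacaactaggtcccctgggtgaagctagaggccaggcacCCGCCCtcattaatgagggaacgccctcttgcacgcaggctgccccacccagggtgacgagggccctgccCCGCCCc
Cd59a: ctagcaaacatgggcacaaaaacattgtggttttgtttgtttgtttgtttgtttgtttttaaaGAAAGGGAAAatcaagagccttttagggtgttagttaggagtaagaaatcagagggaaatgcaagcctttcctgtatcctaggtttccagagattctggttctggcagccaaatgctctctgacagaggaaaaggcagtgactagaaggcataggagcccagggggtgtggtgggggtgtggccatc
Cr2: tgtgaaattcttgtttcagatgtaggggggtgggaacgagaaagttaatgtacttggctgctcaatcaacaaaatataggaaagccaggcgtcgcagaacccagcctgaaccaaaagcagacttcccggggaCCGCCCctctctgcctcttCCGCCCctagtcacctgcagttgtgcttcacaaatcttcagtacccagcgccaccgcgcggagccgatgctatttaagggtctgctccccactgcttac
The Cd55 promoter was 64% G and C with 8 CpG pairs, and that of Cr2 53.6% with 11, against medians of 52% and 6 over 27025 promoters of that length. That of Cd59a was 44.8% G and C and held 0 CpG pairs. Searched on both strands were 7 motifs, with the share of all promoters that hold each, TATAAA (13%), CCAAT (34.5%), GGGCGG (32.9%), TGANTCA (6.87%), TGACGT (6.56%), GAAANNGAAA (3.04%) and TTCNNNGAA (7.18%). GGGCGG matched on the opposite strand in Cd55, 77 and 7 bases before the start, and in Cr2, 118 and 99 bases before it. GAAANNGAAA, the core of an interferon-response element, matched on the gene's strand in Cd59a, 187 bases before the start. No matches overlapped each other, and C3 and C1ra held 0. Of 15 interferon-response genes, 6 were lower in WT_EE and 0 higher with edgeR at an unadjusted p under 0.05, beside 3.34% of all tested genes lower. Whether any of these motifs acts in the colon was not tested.

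By position (GRCm38), Cd55 (1:130439027-130462744) and Cr2 (1:195136811-195176716) lie on chromosome 1, and Serping1 (2:84765387-84775444) and Cd59a (2:104095801-104115354) on chromosome 2. C1ra lies on chromosome 6 (6:124512405-124523443). C4b (17:34728380-34743882) and Cfb (17:34856374-34862518), neighbours in the major histocompatibility complex, and C3 (17:57203970-57228136) lie on chromosome 17. The Cd55 exons share 102 bases with an antisense gene, Gm16083, and those of Cfb 2246 bases with Gm20547 on the same strand, and both of these genes had 0 counts. Several members have near copies that could take up their molecules. In the last 500 transcript bases, C4b shares 29.1% of its 50-base words with C4a, C1ra 17.3% with C1rb, Cd55 15.4% with Cd55b and Cd59a 1.29% with Cd59b. The copies were assigned few molecules, 1 count for C4a against 81 for C4b, 1 for C1rb against 145 for C1ra, 0 for Cd55b against 192 for Cd55 and 7 for Cd59b against 571 for Cd59a. How molecules from shared sequence were assigned or dropped is not stated, so losses from the members cannot be read from these counts. Cr2 shares 0% with its neighbour in function Cr1l, which had 544 counts against 28.

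Around the members, 47 other complement genes were listed, of which 35 had counts and 26 were tested. Of these, 2 were higher and 1 lower in WT_EE with edgeR at an unadjusted p under 0.05, 0 after adjustment, beside 7.65% of all tested genes called in either direction, and their median log2 fold change was −0.04 against 0.01 for all tested genes. DESeq2 gave 3 at the unadjusted limit and limma-voom 5. Colec10, a collectin of the lectin pathway, rose by 0.72 ± 0.26 (SE, edgeR adjusted p = 0.418), and Cpn1, the carboxypeptidase that trims C3a and C5a, by 0.68 ± 0.26 (SE, edgeR adjusted p = 0.441). Like Cd55, Cpn1 did not pass without WT_SE mouse 3 (0.44), nor without WT_EE mice 2 and 4 (0.39), and Colec10 did not pass without the latter 2 (0.57). Neither passed in L2 libraries alone (0.36 for Cpn1 and 0.60 for Colec10) or with the ending in the model (0.35 and 0.59), and further calls were lost for Colec10 with low Slc10a2 only (0.58) and for Cpn1 with high Slc10a2 only (0.55) or with the muscle list in the model (0.49). C2, the partner of C4b in the classical convertase, fell from 4, 4, 2 and 3 counts in WT_SE to 0, 0, 2, 1 and 1 in WT_EE, a log2 fold change of −2.02 (edgeR adjusted p = 0.469), with levels that did not overlap, beside 2.58% of all tested genes. Only 2 WT_SE and 0 WT_EE libraries held more than the 3 counts that a count of 0 allows. Mouse 3 of each group had 2 counts, parted only by the scaling to library size. C2 did not pass without WT_SE mice 1 and 2 (−1.74) or within the high (−1.92) or low (−2.10) Slc10a2 set, with folds of like size. The other partners of C1ra did not pass, with log2 fold changes of −0.09 for C1qa, −0.18 for C1qb, −0.38 for C1qc and 0.01 for C1s1. Nor did these regulators and receptors, with 0.02 for Cr1l, 0.02 for Clu, −0.55 for C3ar1, −0.65 for Itgam and −0.05 for Itgb2, nor the lectin-pathway genes Masp1 (0.13) and Fcna (−0.57). Cfd, the factor D protease that cleaves factor B, measured 238, 0, 57.5 and 0 CPM in WT_SE and 34.5, 73.2, 144, 49.5 and 0 in WT_EE. Counts of the adipocyte gene Adipoq in the same libraries were 70, 0, 15 and 0 and 7, 9, 29, 7 and 0. The log2 fold change of Cfd, −0.32, did not pass. Cfd passed as higher in L2 libraries alone (7.55), with the ending in the model (7.51), with high Slc10a2 only (1.75) and without WT_SE mouse 1 (1.81). With low Slc10a2 only it passed as lower (−1.70). The WT_SE libraries ending in L2, mice 2 and 5, had 0 Cfd counts, so the sizes 7.55 and 7.51 cannot be read. The part of fat content in the Cfd level was not tested. Pore-forming genes, against which Cd59a guards, lay near 0, with 17 counts in all for Hc (C5), 3 for C6, 2 for C7, 1 for C8b, 4 for C8g, 5 for C9 and 0 for C8a.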

How the data were processed

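The deposited files give molecule counts per Ensembl gene for each library, which the authors made from 3′ libraries (QuantSeq FWD) with fastp 0.20.0, STAR (2.7.0f in the processing notes, a different version in the paper's methods), featureCounts 1.6.0 and UMI-tools on GRCm38. A gene that a file does not list was taken as 0 counts. Symbols came from GENCODE release 21 (22256 of 22262 genes matched), with the listed gene C5 matched as Hc. Genes that reached 4 CPM in any library were tested with the quasi-likelihood F test of edgeR 4.0.16 (TMM, environment as the only term, R 4.3.3), with Benjamini-Hochberg adjustment over all 17441 genes tested. Single members were also compared by an exact permutation test (scipy 1.17.1). Likeness is Pearson's r of log2(CPM + 4) over genes with a mean of at least 10 counts, with a limit of 5 for pairs of members and of 20 counts in all for relations to marker lists. Named were the 8 members, their near copies, the other complement genes with a mean of at least 5 counts or an unadjusted p under 0.05 (1 of these is counted but not shown), the 3 genes most like each member, and markers that moved with a member. The pore-forming genes were named after their values were seen. Alternatives were other filters, normalizations and tools (DESeq2 1.42.0, limma 3.58.1), a replicate block, the library-name ending and leaving out each library. Alternatives on Slc10a2, Adipoq, B-cell and smooth muscle content were chosen after seeing the data. Members and lists were chosen with earlier results of these data known. Tables and plots were made with python 3.11.15, numpy 2.4.6, pandas 2.3.3 and matplotlib 3.10.9.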

Additional observations from a re-analysis of the deposited data

Results flagged for a closer look

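In WT_SE, Cd59a in mouse 3 lay far below the other 3 mice, with 81.2 CPM against 142 to 153. In the same mouse the summed fibroblast markers were the highest of WT_SE, 1302 CPM against 1120 to 1151. In counts, however, this sum was the lowest of WT_SE, 385 against 411 to 429. In WT_EE mouse 2, the neutrophil list summed to 122 CPM, with 15.5 in the next WT_EE mouse and 24.6 in WT_SE mouse 5. This list rested wholly on Ly6g, with S100a8, S100a9 and Cxcr2 at 0. The epithelial list was lowest in WT_SE mouse 2, at 2061 CPM against 2621 to 2651 in the other WT_SE mice. These are 4 of 76 groups of values examined, and chance gives about 1 in 20. Their causes were not tested.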

How the results depend on the processing

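Cr2 remained lower in WT_EE in 28 of 28 alternatives that could test it (filterByExpr dropped it) and passed in 27, Cd59a remained higher in 29 of 29 and passed in 26, and Cd55 remained higher in 29 of 29 and passed in 19. Their adjusted p ran from 0.00241 to 0.867, 0.0335 to 0.996 and 0.237 to 1. C3, C4b, C1ra and Serping1 passed in 0 alternatives with any tool. The sign was opposite to that reported in 3 of 29 alternatives for C3, 3 of 29 for Serping1, 4 of 28 for C4b and 7 of 29 for C1ra. Among these were C3 without WT_SE mouse 1 (0.094) and without the 2 libraries richest in B-cell markers (0.37), Serping1 without WT_SE mouse 5 (0.16) and with high Slc10a2 only (0.43), and with low Slc10a2 only C4b (−0.39) and C1ra (−0.69). Without each library in turn C3 ran from −0.41 to 0.094, Serping1 from −0.21 to 0.16, C4b from −0.098 to 0.47, C1ra from −0.24 to 0.22 and Cr2 from −4.14 to −2.52.

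The count of members that passed was 2 or 3 without each library in turn. It was 1 when the library-name ending entered the model, with high Slc10a2 only, without the 2 libraries richest in B-cell markers and without the 2 richest in smooth muscle. Genes that passed numbered 804 with filterByExpr, 643 with DESeq2, 688 with the ending in the model, 680 in L2 libraries alone and 410 at p under 0.01, where fewer can pass by construction. Without each library they ranged from 899 to 1581. Other complement genes that passed numbered 5 with limma-voom, 6 without the 2 libraries richest in Adipoq, 1 without the 2 richest in smooth muscle and 1 at p under 0.01, and 2 to 6 without each library. With the replicate block 1170 genes and 2 members passed (Cd55, at 0.46, did not pass), though mice of the same number are different animals and their libraries did not pair (r from −0.0218 to 0.126). The causes were not tested.

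Alternatives on content were chosen after seeing the data. Cfb and Cr2 had the fewest counts of the members, which limits what can be said of them, and whether depth or the assignment of shared bases sets the Cfb count was not tested.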
